A study of Mus musculus with 28 samples.

Results

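Cholesterol synthesis and its sterol-sensing control were followed through 28 genes, chosen by name from the pathway and found among the 54446 genes counted in each library. The genes fall into 6 roles. Acat2 and Hmgcs1 supply the carbon for mevalonate. Mvk, Pmvk, Mvd, Idi1, Fdps and Ggps1 turn mevalonate into isoprenoids. Fdft1, Sqle and Lss make squalene and lanosterol, and Cyp51, Tm7sf2, Msmo1, Nsdhl, Hsd17b7, Ebp, Sc5d and Dhcr7 convert lanosterol to cholesterol. Srebf2, Scap, Insig1 and Insig2 form the sensor, and Stard4, Tmem97, Mylip, Npc1 and Npc2 move cholesterol within the cell or control its uptake. Each of the 28 symbols matched 1 Ensembl identifier, and all 28 passed the filter on low counts in every comparison.

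PolyA-selected RNA was sequenced from liver and kidney of male C57BL/6 mice (C57BL6J in the methods of the study) aged 8 weeks, gavaged for 7 days with nicotinamide mononucleotide (NMN, a precursor of NAD+) or with water. Mice gavaged once daily received 1340 mg/kg/d (4 NMN and 4 water mice per organ), and mice gavaged at the doubled frequency received 2680 mg/kg/d (3 and 3 per organ), so that dose and number of gavages cannot be told apart. The libraries of the schedules also differed in other ways, given below. The 28 libraries held between 12688324 and 33872983 counted reads, which limits the precision of counting only. Whether the liver and the kidney of a given number came from the same animal is not given in the labels, and replicates are taken as separate mice. Each group has more liver and kidney libraries together than mice reported by the study, so some mice must have given both organs. Comparisons between organs took each library as independent, and their p-values do not account for this. Reads were counted without regard to strand. Hmgcs1, Idi1, Ggps1, Fdft1, Lss, Cyp51, Scap and Npc1 overlap another annotated gene on the other strand, and Fdps and Tm7sf2 on the same strand. Acat2 has the close paralog Acat3. The counts of these genes are less certain than those of Ebp, which overlaps none.

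Cholesterol is built from acetyl-CoA by way of mevalonate, the isoprenoids, squalene and lanosterol. When membranes of the endoplasmic reticulum are low in sterol, Scap escorts the precursor of SREBP2, the transcription factor encoded by Srebf2, to the Golgi, where it is cut and released to the nucleus. There it turns on most enzymes of the pathway, while the Insig proteins hold Scap back when sterol is plentiful. The liver is known for high output of this pathway, since it supplies cholesterol to lipoproteins and bile.

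The promoter sequences are shown because SREBP2 acts through short DNA elements in this region. Windows from 250 bases before to 50 after the start, from RefSeq on build GRCm38.p6, matched 23 of the 28 genes. Fdps, Fdft1, Sqle, Stard4 and Npc1 had no entry. The search covered both strands for TCACNCCAC and CACCCCAC, which are forms of the sterol response element and may overlap, for CCAAT, bound by NF-Y, and for CACGTG, the E-box. TCACNCCAC was present in 1 of the 23 genes, Hmgcs1, against 1.44% of 27025 genes with a window. CACCCCAC was present in 2 of them, Acat2 and Hmgcs1, against 3.3% of genes. CCAAT was found in 21 of 23 genes (91.3%), against 41.1% of all genes and 42.8% of the 9608 genes tested in the liver at 1340 mg/kg/d that had a window. CACGTG was found in 5 of 23 (Hsd17b7, Sc5d, Dhcr7, Scap and Insig1), against 8.09% of all genes and 11.8% of those tested in the liver. A match is only a description of the letters. The 250 bases before the start are printed for 4 genes, Hmgcs1 (chr13:119690101-119690350, plus strand) and Acat2 (chr17:12960726-12960975, minus strand) for their sterol elements, Ebp (chrX:8193513-8193762, minus strand) as the gene that passed the test in the kidney, and Insig1 (chr5:28071162-28071411, plus strand) as a feedback gene with an E-box. Capitals mark the motifs in either orientation.
Hmgcs1: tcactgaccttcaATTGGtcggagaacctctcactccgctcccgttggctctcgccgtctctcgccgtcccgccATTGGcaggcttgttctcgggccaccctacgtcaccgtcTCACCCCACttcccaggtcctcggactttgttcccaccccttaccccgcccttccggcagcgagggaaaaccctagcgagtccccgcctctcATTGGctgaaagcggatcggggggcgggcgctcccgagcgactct
Acat2: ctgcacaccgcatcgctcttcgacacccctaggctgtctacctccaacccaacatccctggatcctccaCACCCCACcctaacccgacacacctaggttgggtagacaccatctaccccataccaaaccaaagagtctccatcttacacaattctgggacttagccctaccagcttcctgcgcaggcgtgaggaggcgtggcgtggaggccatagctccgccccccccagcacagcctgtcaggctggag
Ebp: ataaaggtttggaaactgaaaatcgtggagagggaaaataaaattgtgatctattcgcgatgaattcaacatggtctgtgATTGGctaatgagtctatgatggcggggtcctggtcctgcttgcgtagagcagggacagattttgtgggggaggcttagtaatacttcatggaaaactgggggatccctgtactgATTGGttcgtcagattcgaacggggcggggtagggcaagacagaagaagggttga
Insig1: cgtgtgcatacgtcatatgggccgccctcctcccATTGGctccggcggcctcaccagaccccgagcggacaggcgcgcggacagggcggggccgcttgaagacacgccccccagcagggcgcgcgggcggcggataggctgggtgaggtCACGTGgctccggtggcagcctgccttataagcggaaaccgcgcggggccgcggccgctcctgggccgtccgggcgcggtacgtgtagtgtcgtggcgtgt
In Hmgcs1 the element TCACCCCAC, which holds both sterol motifs, begins 137 bases before the start and lies among 3 inverted CCAAT boxes. In Acat2 the single CACCCCAC begins 181 bases before the start, with no CCAAT in the window. Ebp has no sterol motif of these letters, but 2 inverted CCAAT boxes, which begin 170 and 55 bases before the start. In Insig1 the E-box begins 101 bases before the start and an inverted CCAAT box 216 bases before it.

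The first question was where the genes are expressed, which was read from the water mice. With counts scaled across both organs by the trimmed mean of M values (TMM), 25 of 28 genes had higher means in liver than in kidney among the once-daily mice and 24 of 28 among those of the 2680 mg/kg/d schedule. With the threshold at an adjusted p of 0.05 (quasi-likelihood test of edgeR), 21 genes were higher and 2 lower in the liver in the first schedule, and 20 were higher and 3 lower in the second. Of all genes tested, 66.9% and 70.5% passed in either direction, and 30.9% and 31% passed as higher in the liver. The median log2 difference of the 28 genes was 1.70 and 1.69, beside -0.10 and -0.17 over all tested genes. Levels per length are given as RPKM, the CPM divided by the length of the gene's exons in kb. Sc5d, the desaturase near the end of the pathway, stood at 143 ± 12.9 RPKM in liver (SD, n = 4) and at 8.23 ± 0.400 RPKM in kidney (SD, n = 4). Insig1, which retains Scap, stood at 164.5 ± 64.1 RPKM in liver and Ebp, the sterol isomerase, at 159.8 ± 17.6 RPKM, so that their order in the liver is within the spread between mice. In the kidney the highest level was that of Hmgcs1, the cytosolic HMG-CoA synthase, at 93.9 ± 10.1 RPKM, close to its 87.3 ± 27.3 RPKM in the liver.

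The organ difference varied between genes, also between genes of the same role. Fdps, which makes farnesyl diphosphate, was 23.8-fold higher in the liver in the first schedule (log2 difference 4.57, adjusted p = 1.33e-07 from edgeR), Tm7sf2, a sterol reductase, 20.5-fold (adjusted p = 2.25e-11) and Sc5d 17.4-fold (adjusted p = 4.13e-12). Other genes had smaller differences, of either sign. Cyp51, the lanosterol demethylase, had a log2 difference of 0.52 (edgeR adjusted p = 0.0129) in the first schedule and 0.11 (adjusted p = 0.578) in the second, and Mvd, a decarboxylase, had 0.23 (adjusted p = 0.517) and -0.63 (adjusted p = 0.057). Hmgcs1 had a log2 difference of -0.11 (adjusted p = 0.661) in the first schedule and -0.84 (adjusted p = 0.0241) in the second, and Acat2, the cytosolic thiolase, had 0.15 (adjusted p = 0.266) and 0.49 (adjusted p = 0.00214). Srebf2 itself differed by 0.03 (adjusted p = 0.846) and 0.01 (adjusted p = 0.961). Mylip, a ubiquitin ligase that lowers lipoprotein receptors, and Ggps1, which makes geranylgeranyl diphosphate for protein prenylation, were the genes that passed as lower in the liver in both schedules, Mylip by a log2 difference of -1.99 and -1.38 and Ggps1 by -1.13 and -1.25. These directions and sizes depend on the scaling. With library size alone, the median over all genes was -1.05 and -1.10, the number of the 28 genes higher in the liver was 19 and 18, and 17 against 8 and 15 against 9 passed as higher and lower, where 81.1% and 82.5% of all genes passed. On that scale Srebf2, Acat2, Mvd, Npc2 and Cyp51 were lower in the liver in both schedules. Hmgcs1 stood at 63.0 RPKM in liver and 130.4 RPKM in kidney in the first schedule (log2 difference -1.05, edgeR adjusted p = 0.000476). The log2 differences of Fdps, Tm7sf2 and Sc5d in the first schedule were 3.626, 3.405 and 3.175 with library size alone.

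**Figure D1:**
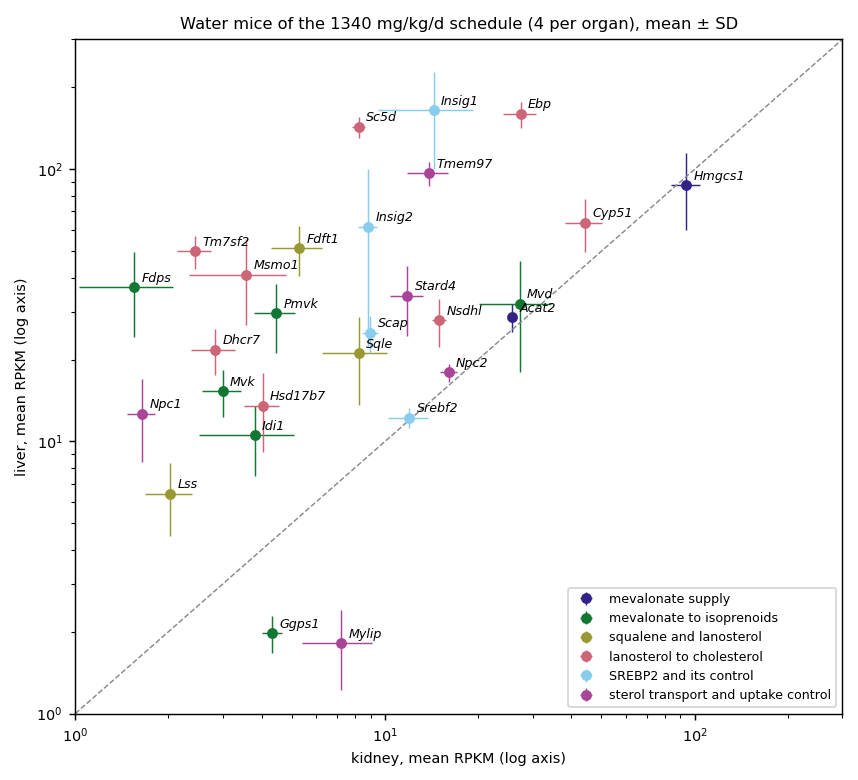
Mean RPKM of the 28 genes in the kidney (x axis) and the liver (y axis) of the water mice of the 1340 mg/kg/d schedule, both on log axes, with bars for the SD over 4 mice, colours for the role and the diagonal for equal levels. Sc5d, Tm7sf2 and Fdps lie farthest above the diagonal, Hmgcs1 and Srebf2 lie close to it, and Ggps1 and Mylip lie below it.

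Several libraries differed from the others in ways that bear on the NMN comparisons. NMN liver replicate 4 of the 1340 mg/kg/d schedule had 12.8% of its reads on no gene and 5.1% ambiguous, against 4.91 to 7.44% and 3.09 to 3.59% in the other 7 liver libraries of that schedule. The summed level of 4 proximal tubule markers (Slc34a1, Lrp2, Slc22a6 and Kap, of which Kap was the most abundant) was 35.9 to 41.2 CPM in the liver libraries of water mice and 37.4 to 52.7 CPM in those of NMN mice at 1340 mg/kg/d, the highest again in NMN replicate 4, while at 2680 mg/kg/d it was 29.7 CPM in NMN replicate 1 and 1.29 to 9.05 CPM in the other 5. That library also had 9.24% of its counted reads on mitochondrial genes and 5.06% of its reads on no gene, against 5.74 to 7.37% and 3.27 to 4.21% in the other 5. In kidney libraries the proximal tubule sum ran from 19830 to 37430 CPM. The 5 hepatocyte markers summed to at least 85470 CPM in every liver library. The part of these differences in the results was not tested, and counts are given with and without the libraries concerned. In whole organs, fewer cells of a type and less RNA per cell cannot be told apart.

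In the liver at 1340 mg/kg/d, no sterol gene passed the same threshold in edgeR, with the filter on low counts, or in DESeq2. Most were lower with NMN. Of 28 genes, 23 had a negative log2 fold change, and the median was -0.33, beside -0.003 over all 12449 tested genes, of which 50.5% were lower. All 8 genes from lanosterol to cholesterol and all 3 genes of squalene and lanosterol had lower means. The share of all tested genes that passed was 0.0161% in edgeR and 0.573% in DESeq2. At an unadjusted p under 0.05, 9 of 28 genes were lower and none higher (Mvd, Fdps, Fdft1, Lss, Sc5d, Dhcr7, Insig1, Stard4 and Tmem97), where 6.86% of all genes reached that value in either direction and 3.34% as lower. Without NMN replicate 4, the number was 4 genes and the median -0.22, with 19 genes lower. Without NMN replicate 2 it was 2 genes, without water replicate 3 it was 3, and without water replicate 1 or 4 it was 4, with 1 gene higher in the fit without water replicate 1. It was 8 without NMN replicate 3, and 11 without NMN replicate 1 or water replicate 2. Over these 8 fits, between 2.06 and 4.3% of all tested genes reached that value as lower. Marker sums also moved between these groups. Of 3 pancreatic acinar markers, Cpa1 and Pnlip were at 0 in all 14 liver libraries, and the sum, which was Cela1 alone, was 19.45 to 37.67 CPM in the water livers and 7.55 to 18.3 CPM in the NMN livers, with no overlap, although Cela1 did not pass in edgeR. The 3 sinusoidal endothelial markers summed to 58.5 to 91.3 CPM and 88.01 to 99.07 CPM, with higher NMN means for 3 of 3 and none called. The 3 red blood cell markers, of which Alas2 was the most abundant, summed to 93.6 to 159.8 CPM (median 107.8) and 63.6 to 112.6 CPM (median 71.9). The sums of 3 of 4 NMN livers lay below those of every water liver. Yet 1 of 3 markers was lower and 2 were higher, with none called. Their part in the result was not tested.

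Mvd, the mevalonate diphosphate decarboxylase, had the largest fold change. It stood at 66.0, 19.5, 42.7 and 44.5 CPM in the water mice and at 28.2, 9.83, 19.9 and 7.39 CPM in the NMN mice. In all, 3 of the 4 water mice lay above all NMN mice, and water replicate 2 lay among them. The means were 43.2 ± 19.0 and 16.3 ± 9.58 CPM (SD, n = 4 each), with log2 fold change -1.40 (standard error, SE, 0.50, edgeR adjusted p = 0.656). The exact two-sided permutation test gave p = 0.0857, where the smallest p for 4 against 4 is 0.0286.

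Sc5d was the gene among the 28 whose groups did not overlap, as was the case for 3.53% of all genes. Its values were 497.5, 465.3, 576.4 and 477.3 CPM with water and 386.5, 333.4, 453.4 and 280.2 CPM with NMN. Every NMN mouse lay below every water mouse, with a log2 fold change of -0.47 (SE 0.15, edgeR adjusted p = 0.499, exact permutation p = 0.0286). Stard4, a cytosolic sterol carrier, had the smallest unadjusted p of the 28. It stood at 94.4, 118.4, 186.4 and 155.1 CPM with water and at 95.9, 74.9, 87.4 and 78.4 CPM with NMN. Only water replicate 1 lay within the range of the NMN mice. Its log2 fold change was -0.72 (SE 0.19, unadjusted p = 0.00216 and edgeR adjusted p = 0.341, exact permutation p = 0.0571). Without the filter on low counts Stard4 passed in edgeR, as given under the processing.

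Lss, the lanosterol synthase, stood at 59.7, 28.3, 62.0 and 50.8 CPM with water and at 29.2, 18.6, 45.7 and 25.8 CPM with NMN, with log2 fold change -0.75 (SE 0.30, edgeR adjusted p = 0.67). Insig1 stood at 377.9, 244.1, 572.9 and 280.8 CPM with water and at 309.9, 211.1, 257.7 and 173.1 CPM with NMN, with log2 fold change -0.63 (SE 0.27, edgeR adjusted p = 0.696). Hmgcs1 stood at 282.6, 163.9, 373.3 and 342.3 CPM with water and at 309.3, 172.1, 267.2 and 85.3 CPM with NMN, with log2 fold change -0.48 (SE 0.41, edgeR adjusted p = 0.871). In all of these genes the groups overlapped, and water replicate 2 held the lowest water value. With 1 mouse left out at a time, the log2 fold change ranged from -1.03 to -0.58 for Lss and from -0.79 to -0.34 for Insig1. For Hmgcs1 it ranged from -0.73 to -0.22. The sensor genes Srebf2 and Scap had log2 fold changes of 0.03 and -0.06, each smaller than its standard error. Insig2, also of the sensor, was higher with NMN (log2 fold change 0.42), without an unadjusted p under 0.05 in edgeR.

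The values of a mouse tended to be low or high across many of the genes. The mean over the 28 genes, as a log2 difference from the mean of the water mice, was 0.11, -0.34, 0.20 and 0.03 in the water mice and 0.02, -0.58, -0.06 and -0.79 in the NMN mice of the 1340 mg/kg/d liver. NMN replicate 4, the library with the most reads on no gene, held the lowest value of the 8 mice for 18 of 28 genes. NMN replicate 2 did so for 5. No count over all tested genes is given beside these. NMN replicates 1 and 3 lay within the range of the water mice, and water replicate 2 lay below both. The group means were 0.00 ± 0.24 and -0.35 ± 0.39 (SD, n = 4 each). The genes also had a higher median spread between mice of a group than all tested genes in this liver comparison. The median within-group SD of log2 CPM was 0.44 for the 28 genes and 0.46 for the 19 synthesis genes, beside 0.31 over all tested genes, and 20 of 28 genes lay above that value. Mvd had the widest spread of the 28 (SD 0.81) and Tmem97, a membrane protein of the endoplasmic reticulum, the narrowest (SD 0.17). In the kidney at 1340 mg/kg/d the median SD was 0.19, beside 0.22 over all tested genes, with 10 of 28 genes above that value. In the kidney at 2680 mg/kg/d it was 0.19, beside 0.16. These differences in spread were not tested.

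**Figure D2:**
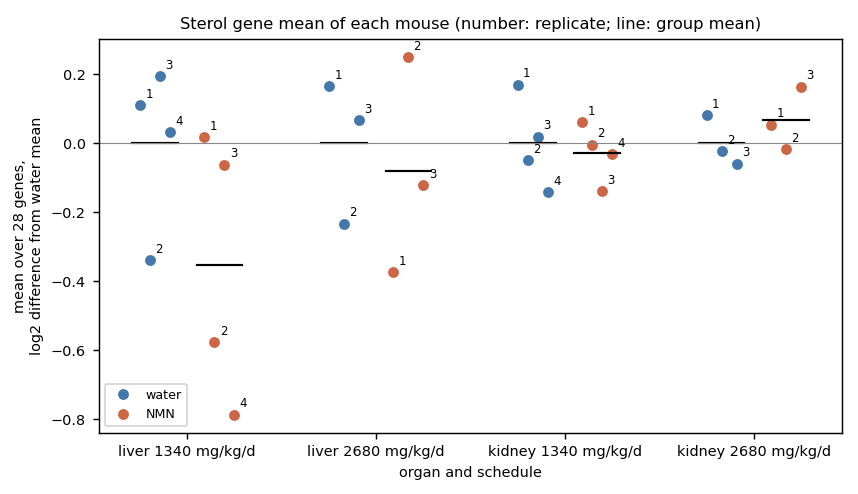
Mean over the 28 genes in each mouse (y axis, log2 difference from the mean of the water mice of the same organ and schedule) by organ and schedule (x axis), with points for mice, numbers for replicates and lines for group means. In the liver at 1340 mg/kg/d NMN replicates 2 and 4 lie at -0.58 and -0.79 and the other NMN mice near 0, and the kidney mice all lie between -0.14 and 0.17.

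In the liver at 2680 mg/kg/d the sterol genes did not share a direction. With the filter on low counts no sterol gene passed in edgeR, where 7.08% of all 12477 tested genes did. Of the 28 genes, 16 were lower and 12 higher, with a median log2 fold change of -0.03. At an unadjusted p under 0.05 there were 4 higher genes (Idi1, Cyp51, Scap and Mylip) and 4 lower genes (Mvk, Fdps, Tm7sf2 and Ebp), 8 of 28, where 24.6% of all tested genes reached that value. DESeq2 called 2 of the 28, Idi1 (log2 fold change 0.98, adjusted p = 0.0395) and Fdps (-0.94, adjusted p = 0.0287), where 11.6% of the genes it tested passed. The count rested on single mice. Without NMN replicate 1, the library with kidney markers, edgeR called Cyp51, where 5.6% of all tested genes passed in that fit, and 12 of 28 genes were lower. Without NMN replicate 2 it called Tm7sf2, Mvk and Fdps, where 10.2% of all genes passed, and 21 of 28 genes were lower with a median of -0.28. Without water replicate 1, 12 of 28 genes were lower.

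Idi1, the isopentenyl diphosphate isomerase, stood at 16.0, 7.76 and 19.6 CPM with water and at 15.8, 31.5 and 38.0 CPM with NMN. NMN replicates 2 and 3 lay above all water mice, and NMN replicate 1 lay among them. The means were 14.5 ± 6.07 and 28.4 ± 11.4 CPM (SD, n = 3 each), with log2 fold change 0.98 (SE 0.40, edgeR adjusted p = 0.178). The exact permutation test gave p = 0.3, and 3 against 3 mice cannot go below 0.1. Ebp stood at 238.0, 260.6 and 215.8 CPM with water and at 188.1, 206.0 and 176.5 CPM with NMN, with log2 fold change -0.32 (SE 0.14, edgeR adjusted p = 0.175). Scap, the escort of SREBP2, stood at 83.2, 118.4 and 127.4 CPM with water and at 137.3, 156.3 and 152.9 CPM with NMN, with log2 fold change 0.44 (SE 0.17, edgeR adjusted p = 0.144). Mylip stood at 7.68, 7.40 and 8.77 CPM with water and at 10.9, 9.91 and 14.2 CPM with NMN, with log2 fold change 0.55 (SE 0.22, edgeR adjusted p = 0.146). The groups did not overlap for Ebp, Scap, Mylip and Ggps1, 4 of 28 genes, where 29.8% of all tested genes had groups apart.

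Sqle, the squalene epoxidase, stood at 63.0, 31.5 and 60.3 CPM with water and at 32.7, 91.1 and 65.7 CPM with NMN, with log2 fold change 0.29 (SE 0.41, edgeR adjusted p = 0.713). Acat2 stood at 51.7, 47.7 and 52.0 CPM with water and at 37.2, 65.9 and 54.2 CPM with NMN, with log2 fold change 0.06 (SE 0.20, edgeR adjusted p = 0.9). For both genes NMN replicate 1 was low and NMN replicate 2 was the highest of the 6 mice. The same mice set the mean over the 28 genes, which was 0.17, -0.23 and 0.07 in the water mice and -0.37, 0.25 and -0.12 in the NMN mice. NMN replicate 1 held the lowest value for 11 genes and NMN replicate 2 the highest for 10. The median within-group SD was 0.40 for the 28 genes, beside 0.28 over all tested genes.

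**Figure D3:**
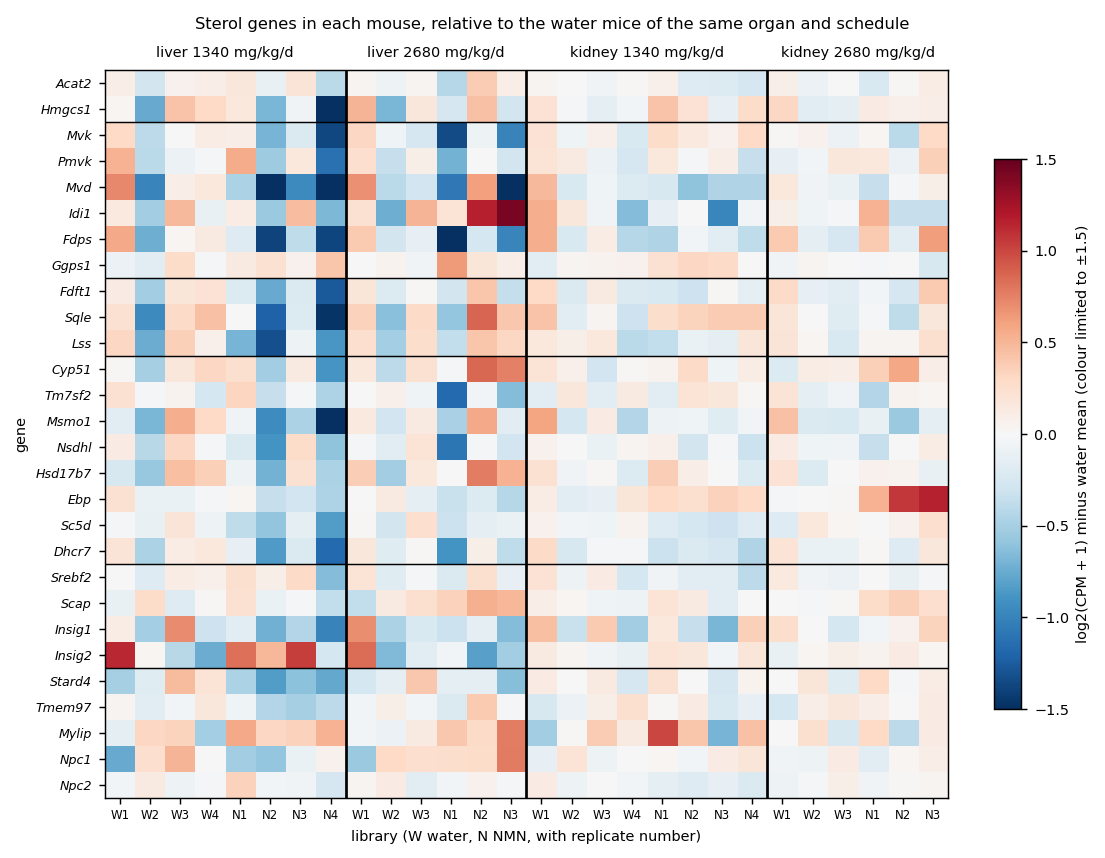
Log2(CPM + 1) of each of the 28 genes (rows, in order of role) in each library (columns, W for water and N for NMN, with the replicate number), minus the mean of the water mice of the same organ and schedule. Blue columns mark mice low in most enzymes, as NMN replicates 2 and 4 of the liver at 1340 mg/kg/d, and the red cells of Ebp stand in the NMN mice of the kidney at 2680 mg/kg/d.

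In the kidney at 1340 mg/kg/d, no sterol gene passed in edgeR, with the filter on low counts, or in DESeq2. Of all tested genes 0.12% and 1.23% did. Of the 28 genes, 15 were lower and 13 higher, with a median log2 fold change of -0.04. At an unadjusted p under 0.05, 2 genes were higher (Sqle and Ebp) and 3 lower (Mvd, Sc5d and Dhcr7), 5 of 28, where 8.94% of all 14972 tested genes reached that value. Ebp, Mvd, Sc5d and Npc2 had groups that did not overlap, 4 of 28, where 5.12% of all tested genes did. Ebp stood at 95.0, 78.3, 81.1 and 99.7 CPM with water and at 108.9, 104.1, 112.2 and 108.7 CPM with NMN, with log2 fold change 0.29 (SE 0.10, edgeR adjusted p = 0.343, exact permutation p = 0.0286). Mvd stood at 97.7, 58.9, 66.1 and 60.1 CPM with water and at 58.5, 45.1, 50.2 and 50.5 CPM with NMN, with log2 fold change -0.47 (SE 0.15, edgeR adjusted p = 0.31). Sc5d stood at 58.4, 54.1, 53.3 and 57.9 CPM with water and at 48.7, 46.4, 44.7 and 48.6 CPM with NMN, with log2 fold change -0.25 (SE 0.09, edgeR adjusted p = 0.414).

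In the kidney at 2680 mg/kg/d, with the filter on low counts, Ebp was the sterol gene that passed the test, and it was higher with NMN. Ebp encodes the emopamil-binding protein, which moves a double bond in the sterol ring between lanosterol and cholesterol. It stood at 66.8, 67.6 and 68.2 CPM in the water mice and at 97.6, 142.4 and 151.2 CPM in the NMN mice. The water mice lay close together and every NMN mouse lay above them. The mean rose from 67.5 ± 0.685 to 130.4 ± 28.8 CPM (SD, n = 3 each), a 1.93-fold change (log2 fold change 0.95, standard error 0.15, adjusted p = 0.0399 from edgeR). The exact permutation test gave p = 0.1, the smallest that 3 against 3 mice allow. DESeq2 also called it (adjusted p = 5.95e-08). With 1 mouse removed at a time, its log2 fold change stayed between 0.83 and 1.12, but the adjusted p ranged from 1.38e-05 to 0.207 and passed in 1 of the 6 fits, that without NMN replicate 1, where 1.25% of all tested genes passed. Of all 15245 tested genes, 0.4% passed in edgeR and 1.52% in DESeq2, so that 1 of 28 genes is to be read against those shares.

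The other sterol genes of that kidney comparison had small fold changes. The log2 fold changes of the 27 others lay between -0.30 and 0.35, and the median over all 28 was 0.02. Cyp51, the lanosterol demethylase, and Scap had an unadjusted p under 0.05 beside Ebp, 3 of 28 and all higher, where 11.1% of all tested genes reached that value. Groups did not overlap for Ebp and Scap, 2 of 28, against 17.2% of all tested genes. Scap stood at 58.4, 57.8 and 59.3 CPM with water and at 71.3, 75.2 and 69.8 CPM with NMN, with log2 fold change 0.30 (SE 0.08, edgeR adjusted p = 0.128). The neighbours of Ebp in the pathway, Hsd17b7 and Sc5d, had log2 fold changes of -0.01 and 0.10. Several marker sums differed beside Ebp, among them lists named for cells of the liver or pancreas. For the proximal tubule the summed level was 27510 to 29730 CPM in the water mice and 19830 to 25510 CPM in the NMN mice at 2680 mg/kg/d, with all 4 markers lower and none past the test, and 27950 to 37430 CPM and 20680 to 27710 CPM at 1340 mg/kg/d. At 2680 mg/kg/d the 4 stellate cell markers, of which Dcn was the most abundant, summed to 65.7 to 69.4 CPM with water and 72.2 to 105.7 CPM with NMN. The 4 cholangiocyte markers, of which Krt7 and Epcam are also found in kidney epithelium, summed to 172.8 to 187.1 CPM and 190.7 to 227.3 CPM. The sum of the 3 acinar markers, which was Cela1 alone, was 41.7 to 50.4 CPM and 32.8 to 39.8 CPM. At 1340 mg/kg/d the 3 markers of the thick limb and distal tubule summed to 3609 to 4262 CPM with water and 4724 to 5064 CPM with NMN, all 3 higher. No marker of these lists passed in edgeR, and their part in the result was not tested. The adrenal markers Cyp11b1 and Th were at 0 in all 28 libraries, and the 7 adrenal markers summed to at most 6.78 CPM in the kidney, with Star the most abundant.

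**Figure D4:**
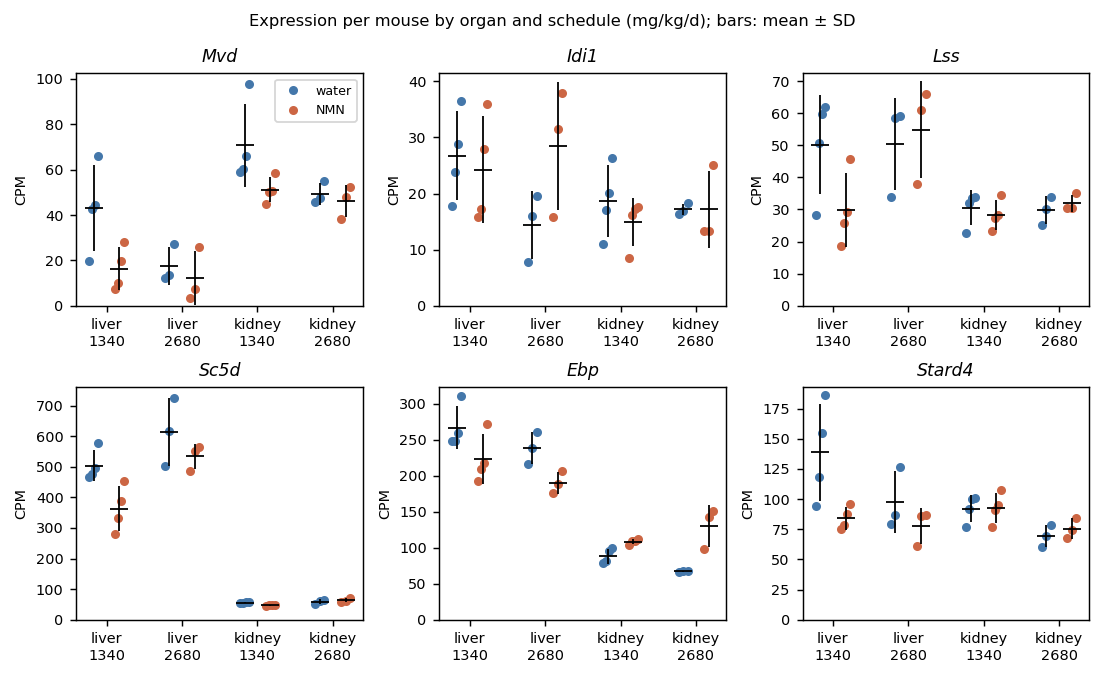
CPM of Mvd, Idi1, Lss, Sc5d, Ebp and Stard4 (y axes, from 0) in each mouse by organ and schedule (x axis, mg/kg/d), blue for water and orange for NMN, with bars for the mean and SD. The NMN mice lie above the water mice for Ebp in the kidney, at 97.6 to 151.2 CPM against 66.8 to 68.2 CPM at 2680 mg/kg/d, and below them for Ebp in the liver at 2680 mg/kg/d.

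The NMN effect on Ebp differed between the organs at 2680 mg/kg/d. In an interaction model over the 12 libraries of the 2680 mg/kg/d schedule, the NMN effect on Ebp was lower in the liver than in the kidney by 1.29 on the log2 scale (log2 difference -1.29, standard error 0.21, adjusted p = 0.00702 from edgeR). It was the single gene of the 28 that passed, in edgeR and in DESeq2, where 2.65% and 7.67% of all tested genes passed and 19.4% had an unadjusted p under 0.05, as 2 of the 28 genes did. With each of the 12 libraries left out, the adjusted p of Ebp lay between 0.00081 and 0.0274. In the 1340 mg/kg/d schedule the same difference was -0.56 (standard error 0.18, unadjusted p = 0.00529, adjusted p = 0.618 from edgeR), so that it did not pass there. None of the 28 genes passed in that schedule in either tool, 3 had an unadjusted p under 0.05 (Sqle, Ebp and Stard4, all with lower NMN effects in the liver), and over all tested genes 0% passed in edgeR, 0.174% in DESeq2 and 5.79% at the unadjusted p. Both tests use the water mice of the same schedule as the comparisons above, and both take liver and kidney libraries as independent.

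Whether the schedules differed was tested over the 14 libraries of each organ. The kidney libraries of the schedules also differed in mitochondrial reads, as given above, and the part of that difference was not tested. In the liver none of the 28 genes passed in edgeR or DESeq2, 1 reached an unadjusted p under 0.05 (Scap, with a log2 difference of 0.51 and an edgeR adjusted p = 0.558), and of all genes 0.0746% passed in edgeR, 0.86% in DESeq2 and 8.6% at the unadjusted p. In the kidney none of the 28 passed in either tool and 3 had an unadjusted p under 0.05 (Ggps1, Ebp and Sc5d), where 0.00625%, 0.0774% and 4.62% of all genes did. The difference for Ebp in the kidney was 0.66 (SE 0.17, edgeR adjusted p = 0.606). The low values of the enzymes in the liver at 1340 mg/kg/d and their mixed values at 2680 mg/kg/d were thus not shown to differ.

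**Figure D5:**
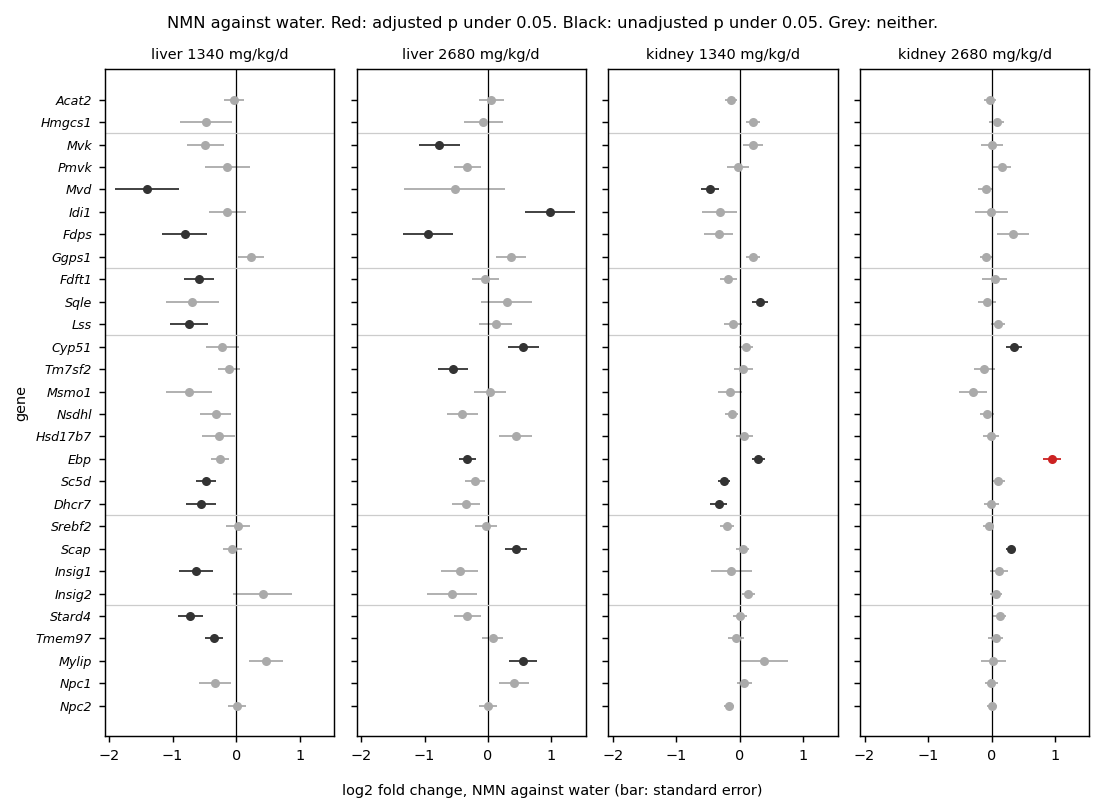
Log2 fold change of NMN against water (x axes, bars for the standard error) of the 28 genes (y axis, in order of role) in the 4 comparisons, red for an adjusted p under 0.05, black for an unadjusted p under 0.05 and grey for neither. The liver at 1340 mg/kg/d has 23 of 28 points left of 0, and Ebp in the kidney at 2680 mg/kg/d, at 0.95, is the red point.

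Other genes of sterol and isoprenoid metabolism were followed from lists. Of 8 genes for SREBP cleavage and sterol-regulated degradation, none passed in the liver in either schedule or in the kidney at 1340 mg/kg/d, and 1 was lower in the kidney at 2680 mg/kg/d, where 0.0161% and 7.08% of all genes passed in the liver at 1340 and 2680 mg/kg/d and 0.12% and 0.4% in the kidney. It was Rnf145, a ubiquitin ligase of the endoplasmic reticulum, which fell from 89.8 ± 2.40 to 66.8 ± 3.55 CPM (SD, n = 3 each), with log2 fold change -0.43 (SE 0.08, edgeR adjusted p = 0.0399). It passed in 1 of 6 fits with a mouse left out and not in the model with a replicate block (adjusted p = 0.0532). Erlin1, a membrane protein that restrains SREBP, had the smallest p of the list in the liver (log2 fold change -0.39 at 1340 mg/kg/d, adjusted p = 0.67). Of 10 genes for the LXR receptors, efflux and esterification, none passed in edgeR in the 4 comparisons, and 7 were expressed enough to be tested in the kidney. In the liver at 2680 mg/kg/d 8 of 10 were higher (median log2 fold change 0.29), and DESeq2, which called 11.6% of all genes there, called Abcg5 (log2 fold change 0.81, adjusted p = 0.028) and Abcg8 (0.84, adjusted p = 0.0362), which together form the sterol exporter of the canalicular membrane, as higher. Nr1h3, which encodes LXR alpha, had log2 fold changes of -0.33 and -0.44 in the liver at 1340 and 2680 mg/kg/d (adjusted p = 0.67 and 0.0952), and its groups did not overlap in either schedule, as for 3.53% and 29.8% of all genes.

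Of 12 genes of the isoprenoid branch, 1 passed in edgeR in the 4 comparisons, Fntb, the beta subunit of protein farnesyltransferase, which was lower in the liver at 2680 mg/kg/d (3.81 ± 0.678 to 1.52 ± 0.285 CPM, log2 fold change -1.32, adjusted p = 0.0439). Fntb shares exon sequence with Churc1, and its count is uncertain for that reason. It did not pass in any fit with a mouse left out, nor in the model with a replicate block (adjusted p = 0.0539), and 1 of 12 is close to the 7.08% of all genes that passed there. Of 4 other SREBP targets, Aacs, which activates acetoacetate for lipid synthesis, was lower in the liver at 2680 mg/kg/d (63.6 ± 29.3 to 12.4 ± 6.82 CPM, log2 fold change -2.36, adjusted p = 0.0457) and passed in 2 of 6 fits with a mouse left out and not with the block (adjusted p = 0.111). At 1340 mg/kg/d its log2 fold change was -1.51 (edgeR adjusted p = 0.325), with no overlap between the groups, as for 3.53% of all genes, and DESeq2 called it (adjusted p = 0.000374), as it did 0.573% of all genes.

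The genes of fatty acid synthesis, targets of the related factor SREBP1, were listed beside them. In the liver at 2680 mg/kg/d the NMN means of all 8 were lower (median log2 fold change -1.03), and 6 passed in edgeR (Thrsp, Fasn, Acaca, Scd1, Acly and Elovl6), where 7.08% of all genes did. With a mouse left out, Thrsp, Fasn, Scd1 and Acly passed in 6 of 6 fits, Elovl6 in 5 and Acaca in 1 (adjusted p up to 0.103). Thrsp, a lipogenic factor, had the largest change, from 339.9 ± 40.7 to 28.9 ± 15.5 CPM (SD, n = 3 each, log2 fold change -3.56, adjusted p = 0.00205). Fasn, the fatty acid synthase, went from 723.3 ± 31.4 to 194.1 ± 75.0 CPM (log2 fold change -1.90, adjusted p = 0.00404). Several marker sums moved in the same livers. Hepatocyte markers, of which Alb was the most abundant, summed to 147600 to 159300 CPM with water and to 109400 to 124600 CPM with NMN, with 5 of 5 lower and 1 called by edgeR. Red blood cell markers summed to 109.5 to 126.5 CPM and 41.2 to 68.5 CPM, with 2 of 3 lower and 1 called. Of these, Alas2 was the most abundant in the water livers, at 86.7 to 107.6 CPM. It stood at 35.0 and 33.8 CPM in NMN replicates 1 and 2. In NMN replicate 3 the globin gene Hbb-bs was the most abundant, at 32.2 CPM, so that the markers did not move together. The acinar sum, again Cela1 alone, was 19.55 to 24.01 CPM and 4.09 to 6.36 CPM, and Cela1 passed as lower. At low levels, B and T cell markers summed to 0.979 to 1.70 CPM and 0.74 to 0.894 CPM, and adrenal markers, with Star the most abundant and 5 or 6 of 7 at 0 in each library, to 0.773 to 1.78 CPM and 2.37 to 3.25 CPM, with none called. The groups overlapped in none of these 5 sums, and their part in the results for fatty acid and sterol genes was not tested. At 1340 mg/kg/d, in the livers whose red blood cell and acinar sums are given above, all 8 were lower with a median of -0.70 and none passed in edgeR, where 6 had an unadjusted p under 0.05, as did 6.86% of all genes, and DESeq2 called 3 (Thrsp, Fasn and Srebf1), beside 0.573% of all genes. In the kidney none passed in either schedule. No test compared this list with the sterol genes.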

How the data were processed

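The authors extracted total RNA from liver and kidney, prepared polyA libraries and sequenced them on more than 1 instrument; which library ran on which is not given in the sources used here. Reads were mapped by the authors with STAR to a mouse genome they name mm19 and counted per gene with HTSeq, without strand and with strict intersection. The deposited files hold these raw counts, 1 file per library, and nothing in them was pooled or normalised. Rows that name no gene were left out of library sizes (3.27 to 12.8% of reads on no feature, 1.76 to 5.1% ambiguous and 10.1 to 20.0% not uniquely aligned).

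Each comparison was fitted with edgeR 4.0.16 in R 4.3.3 on all genes that passed filterByExpr, with TMM scaling and the robust quasi-likelihood test, and p-values were adjusted by Benjamini-Hochberg over all tested genes at 0.05. NMN was compared with the water mice of the same organ and schedule, and differences between schedules and organs were tested as interaction terms. Alternatives were DESeq2 1.42.0, its size factors within edgeR, no filter, a replicate block, a stricter threshold, another gene length and each library left out. Single genes were also compared by a two-sided exact permutation test. CPM values use TMM library sizes within an organ and schedule, and RPKM values use TMM across both organs of a schedule. The fits were also run on simulated data, and no result of that run is given here.

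The genes and lists were chosen with earlier results of these data known. Values were given per mouse for each of the 28 genes past the threshold in an NMN comparison or interaction and, in each role, for the gene with the smallest unadjusted p in each liver comparison. Those of Mvd and Sc5d in the kidney at 1340 mg/kg/d and of Scap in the kidney at 2680 mg/kg/d were added after they were seen. Genes of the other lists are given by counts, with group means for some of those named. The 4 promoters were chosen after the values were seen. Gene names were matched by Ensembl identifier, exon lengths and gene overlaps came from a GENCODE annotation, and promoters came from RefSeq on GRCm38.p6. Precision refers to counting and to the spread between mice, and p-values measure only the spread between these libraries. Other genes of the pathway are not reported here.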

Additional observations from a re-analysis of the deposited data

Results flagged for a closer look

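Among 52 sets of 4 mice examined for a value far from the other 3, 4 were found, and chance alone gives about 5%. Water replicate 2 of the liver at 1340 mg/kg/d was low for Acat2 at 43.1 CPM and for Sqle at 40.5 CPM. In the kidney at 1340 mg/kg/d, NMN replicate 3 was low for Idi1 at 8.56 CPM and water replicate 4 was low for Lss at 22.6 CPM.

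The NMN effect differed between liver and kidney at 2680 mg/kg/d for 1 of the 28 sterol genes and 3 of the 8 genes of fatty acid synthesis by edgeR's interaction term, where 2.65% of all tested genes passed and 19.4% had an unadjusted p under 0.05. The log2 difference was -1.29 for Ebp (adjusted p = 0.00702), -3.91 for Thrsp (adjusted p = 0.00573), -2.15 for Fasn (adjusted p = 0.0333) and -1.66 for Scd1 (adjusted p = 0.0471). With each of the 12 libraries left out, Ebp and Thrsp passed in 12 of 12 fits, Fasn in 5 and Scd1 in 4.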

How the results depend on the processing

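Without the filter on low counts, the number of the 28 genes called was 1 in the liver and 1 in the kidney at 1340 mg/kg/d, 4 in the liver and 3 in the kidney at 2680 mg/kg/d, 1 for the schedule interaction in the kidney and 4 for the organ interaction at 2680 mg/kg/d, where 0.194%, 1.02%, 8.47%, 1.91%, 0.365% and 4.69% of all genes were called under that setting. DESeq2 called 2 in the liver at 2680 mg/kg/d. The causes were not tested. With a library left out in turn, the number called ranged from 0 to 3 in the liver at 2680 mg/kg/d, from 0 to 1 in the kidney at 2680 mg/kg/d and from 1 to 4 for the organ interaction at 2680 mg/kg/d, where 1.64 to 10.2%, 0.0191 to 1.25% and 0.729 to 8.34% of all genes were called. In the liver at 2680 mg/kg/d the log2 fold change with a library left out ranged from -0.152 to 0.245 for Acat2 and from -0.078 to 0.598 for Sqle, negative without NMN replicate 2 and 0.055 and 0.292 with all mice. The median over the 28 genes stayed negative in the liver at 1340 mg/kg/d (-0.43 to -0.22) but crossed 0 in the liver at 2680 mg/kg/d (-0.28 to 0.05) and in the kidney (-0.09 to 0.04 and -0.01 to 0.10). Without the filter Stard4 passed in the liver at 1340 mg/kg/d (adjusted p = 0.0214 from edgeR). With the replicate number as a block, the number of the 28 genes called was 0, 0, 0 and 1 in the NMN comparisons, as without it, and Fntb, Aacs and Rnf145 no longer passed (adjusted p = 0.0539, 0.111 and 0.0532 from edgeR). Deviations of same-numbered libraries correlated between -0.10 and 0.16, so that the numbers were not taken as pairs, although in the liver at 2680 mg/kg/d all 3 water libraries matched their own number best. With 3 or 4 mice a group, the spread between mice limits what can be detected.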

Other observations

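Hepatocyte markers at 1340 mg/kg/d summed to 89990 to 119300 CPM in the water livers and to 85470 to 116900 CPM in the NMN livers, with 3 of 5 lower. Adipocyte markers in the kidney summed to 1.33 to 37.1 CPM over the mice of the 1340 mg/kg/d schedule and to 69.2 to 140.9 CPM over those of the 2680 mg/kg/d schedule, with no overlap between the schedules. The CPM of each schedule were scaled separately.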
